A study of Mus musculus with 23 samples.

Results

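Heat shock proteins and the cytosolic chaperonin are the machines that fold newly made proteins and refold damaged ones. The genes described here are 37 named genes of this system, taken by their symbols from the deposited count table of 49492 genes. All 37 were among the 18015 genes tested. They fall into 9 roles: 3 cytosolic HSP70 genes, 3 HSP110 genes, 2 HSP90 genes, 6 J-domain proteins, 3 HSP70 cofactors, 6 HSP90 co-chaperones, 4 mitochondrial chaperones, 2 heat shock factors and 8 subunits of the TRiC chaperonin (also called CCT). Their transcripts were followed through the 6 groups of the study.

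The samples were CD8+ T cells taken from the spleens of mice, and their polyadenylated RNA was sequenced. The cells had the genotype PLPP1fl/fl, in which the gene for the membrane lipid phosphatase PLPP1 carries loxP sites (WT), or Lckcre-PLPP1fl/fl, which adds a Cre recombinase driven by the T cell promoter Lck (KO). So all groups carried the floxed gene, and only KO carried Cre. Cells of each genotype received no fatty acid, the polyunsaturated arachidonic acid (AA) or the monounsaturated octadecenoic acid (OA). The 23 libraries gave 4 per group, except KO with OA, which had 3. The labels give no mouse age, no dose and no treatment time, and they do not say that libraries came from separate animals, so a p-value here covers the library-to-library spread alone, which may be technical.

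Total counts ran from 39265131 to 58878203 per library, and the 37 genes took 1.97% to 2.47% of them. The CD8 markers Cd8a and Cd8b1 summed to 708 to 914 CPM (counts brought to a common library total) in every library. The 3 helper T cell genes Cd4, Zbtb7b and Cd40lg summed to 6.37 to 10.5 CPM, and Cd4 alone had 1.49 to 2.79 CPM. Plpp1 was too low to check the genotype: its mean was 0.559 CPM in untreated WT and 0.507 CPM in untreated KO. The genotypes also differed in Xist, the X-inactivation transcript, at 815 to 866 CPM in untreated WT and 4.35 to 5.35 in untreated KO, and in the T cell receptor segment Trbv12-1, at 153 to 164 and 7.02 to 7.56 CPM. The loss of PLPP1 therefore cannot be told apart from whatever else these transcripts mark. Sums over marker genes of other cell types were small. Those of 9 dendritic cell genes were 33.7 to 37.7 CPM in untreated WT and 23.3 to 26.7 CPM in untreated KO, and those of 6 platelet genes were 14.8 to 16.1 and 7.29 to 9.09 CPM. Sums of 6 macrophage and monocyte genes were 11.1 to 13.5 CPM in untreated WT and 7.47 to 8.53 CPM in untreated KO. The sum of 4 NK cell genes went the other way, at 0.428 to 0.613 and 1.43 to 1.57 CPM. Sums of B cell, erythroid and neutrophil genes overlapped between these groups.

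HSP70 chaperones bind exposed hydrophobic stretches of unfolded proteins in a cycle driven by ATP: J-domain proteins hand over the client, and HSP110 and BAG proteins help to exchange the nucleotide. HSP90 and its co-chaperones take over clients that are partly folded, among them many kinases and receptors, and TRiC, a closed barrel of related subunits, folds actin and tubulin. The mitochondrial matrix has its own set, in which HSPA9 pulls in imported chains and HSPD1 with its lid HSPE1 folds them. Heat shock factor 1 (HSF1) raises many of these genes under stress by binding repeats of the 5-base unit nGAAn in their promoters, and T cells make more chaperones when they are activated and grow.

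The promoter windows of 29 of the 37 genes were found among the RefSeq windows (build GRCm38.p6), each running from 250 bases before the transcription start to 50 bases after it. They are shown because such repeats are the sites through which HSF1 is known to act on this family. The 13-base arrangement of 3 adjacent units, searched as GAANNTTCNNGAA and its reverse complement TTCNNGAANNTTC, occurred in 5 of the 29 members (17.2%) and in 0.662% of all 27025 genes with a window. The 8-base arrangement of 2 units, GAANNTTC or TTCNNGAA, each its own reverse complement and contained in the longer one, occurred in 15 members (51.7%) and in 17.0% of all genes. The 5 members with 3 units were Hspd1, Hspe1, Hsph1, Dnajb6 and Chordc1. Capitals mark the run of 3-unit matches, which is 4 units long in Hspe1, 5 in Chordc1 and 3 in Hsph1 and Dnajb6, or in Hspa1b the 2 units, in the sequences below, read 5′ to 3′ on the strand of the gene.
Hspe1, chr1:55087898-55088197 (+): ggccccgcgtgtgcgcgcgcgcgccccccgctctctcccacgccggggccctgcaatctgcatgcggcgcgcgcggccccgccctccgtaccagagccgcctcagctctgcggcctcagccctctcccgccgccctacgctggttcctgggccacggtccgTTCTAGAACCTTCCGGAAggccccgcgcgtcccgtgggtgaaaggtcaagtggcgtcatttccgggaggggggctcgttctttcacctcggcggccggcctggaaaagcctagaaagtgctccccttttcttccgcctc
Hsph1, chr5:149636287-149636586 (-): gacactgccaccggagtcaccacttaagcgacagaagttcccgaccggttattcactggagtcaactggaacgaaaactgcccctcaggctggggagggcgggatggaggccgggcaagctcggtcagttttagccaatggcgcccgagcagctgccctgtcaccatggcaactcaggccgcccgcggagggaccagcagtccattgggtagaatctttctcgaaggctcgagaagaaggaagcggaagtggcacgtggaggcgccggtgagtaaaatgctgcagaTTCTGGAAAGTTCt
Dnajb6, chr5:29735648-29735947 (+): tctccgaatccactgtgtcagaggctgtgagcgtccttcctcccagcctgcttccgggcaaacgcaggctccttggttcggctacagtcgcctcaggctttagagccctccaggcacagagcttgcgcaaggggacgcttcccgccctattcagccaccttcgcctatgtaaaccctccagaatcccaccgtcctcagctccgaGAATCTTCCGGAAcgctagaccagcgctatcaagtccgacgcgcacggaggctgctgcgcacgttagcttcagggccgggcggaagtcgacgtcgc
Chordc1, chr9:18292017-18292316 (+): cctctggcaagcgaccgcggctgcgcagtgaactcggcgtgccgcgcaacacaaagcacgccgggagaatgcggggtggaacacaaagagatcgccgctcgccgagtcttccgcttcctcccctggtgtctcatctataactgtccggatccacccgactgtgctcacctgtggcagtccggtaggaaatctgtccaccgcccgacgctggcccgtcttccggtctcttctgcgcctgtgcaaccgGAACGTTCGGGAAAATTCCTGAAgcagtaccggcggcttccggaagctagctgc
Hspa1b, chr17:34959189-34959488 (-): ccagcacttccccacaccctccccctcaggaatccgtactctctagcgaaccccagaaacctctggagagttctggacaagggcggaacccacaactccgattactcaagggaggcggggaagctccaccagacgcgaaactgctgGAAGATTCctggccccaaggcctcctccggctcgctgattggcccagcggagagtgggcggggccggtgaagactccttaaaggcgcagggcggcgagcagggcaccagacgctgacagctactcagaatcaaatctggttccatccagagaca

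Hspe1 and Hspd1 lie head to head on chromosome 1, and the marked stretch of Hspe1, 89 bases before its start, is the same stretch that lies 144 bases before 1 of the 2 listed starts of Hspd1 on the other strand, while the window of the other start of Hspd1 held no match. In Hsph1 the 3 units began 36 or 15 bases after the start and in Dnajb6 46 or 127 bases before it, as each has 2 listed starts (the windows printed go with the first position), and in Chordc1 overlapping matches ran across the start itself. The window of Hspa1b held a single 2-unit match 104 bases before its start, and that of its near copy Hspa1a (chr17:34972107-34972406, -) was identical at 296 of 300 bases (98.7%) with the match at the same place. A match describes these letters only and does not show that HSF1 was bound.

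Levels between genes were compared per length, as RPKM, which divides CPM by the deposited gene length in kilobases. Hsp90ab1, the constitutive HSP90, was the most abundant member, at a mean of 2982 RPKM over all libraries, and alone gave 40.4% of the summed CPM of the 37 genes. Hspa8, the constitutive HSP70, followed at 962 RPKM and Hsp90aa1, the stress-inducible HSP90, at 345 RPKM. At the other end stood the stress-inducible HSP70 genes, Hspa1b at 0.298 RPKM and Hspa1a at 0.0795 RPKM. Bag3, an HSP70 cofactor in stress-linked autophagy, had 1.47 RPKM, Hsf2 3.54 and Hsf1 4.21. Within TRiC, whose subunits stand in equal number in the complex, the mean in untreated WT ran from 15.6 RPKM for Cct4 to 201 RPKM for Cct2, and the deposited length joins all annotated exons, so values per length depend on the annotation.

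**Figure D1:**
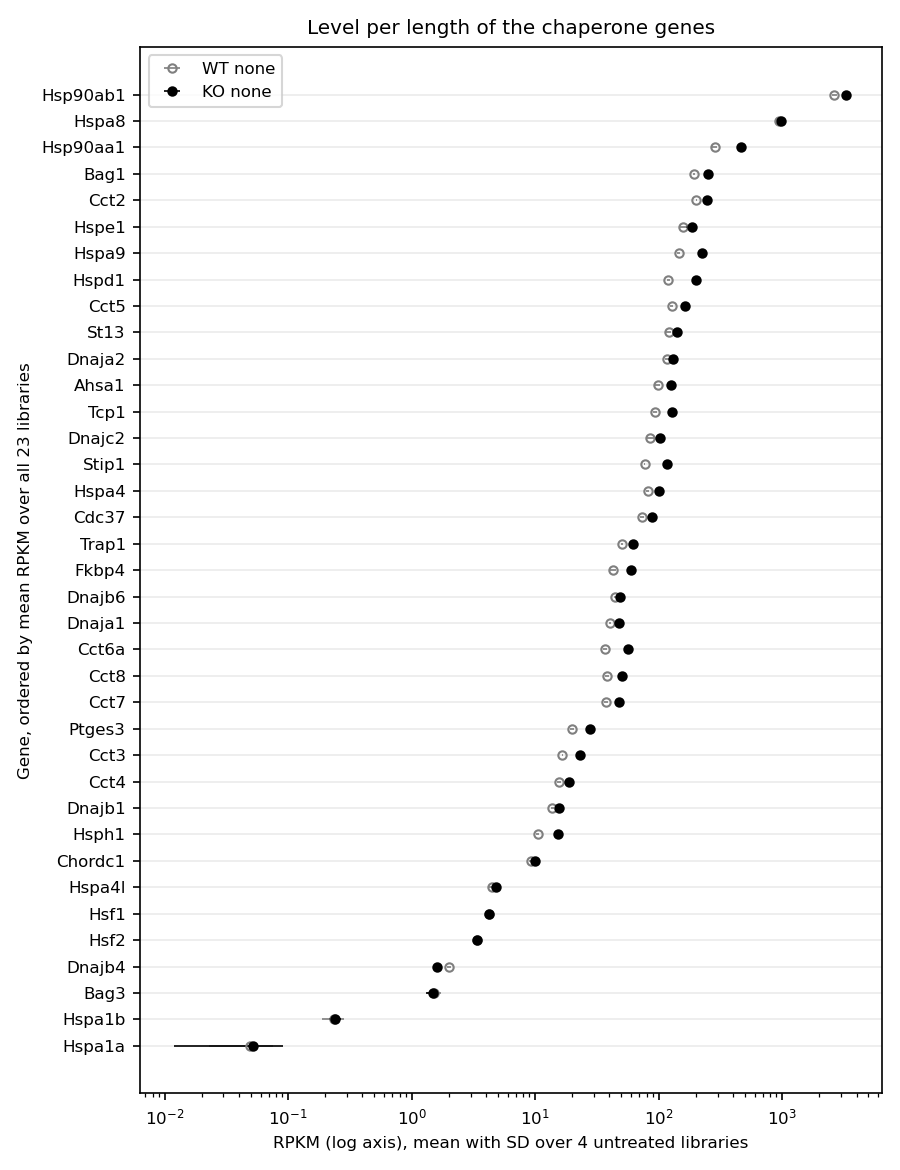
Mean RPKM (log axis) with SD over 4 libraries for each of the 37 genes in untreated WT (open) and untreated KO (filled), ordered by the mean over all 23 libraries. Hsp90ab1 stands highest, with 2636 RPKM in WT and 3289 in KO, and Hspa1a lowest.

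KO cells held more transcript of most chaperones than WT cells when neither had been given a fatty acid. Of the 37 genes, 30 were higher in KO, 1 (Dnajb4) was lower and 6 did not pass the test, edgeR's quasi-likelihood test with a Benjamini-Hochberg adjusted p under 0.05, from which all adjusted p-values here come. Among all genes tested, 49.8% passed, 25.6% higher and 24.2% lower. The share was larger among better expressed genes. It was 60.8% of the 13752 genes kept by a stricter filter (at least 1 CPM in at least 4 libraries). The median log2 difference was 0.29 over the members and -0.00 over all genes tested. The summed level of the 37 genes was 20079 ± 731 CPM in WT (SD, n = 4) and 24912 ± 597 CPM in KO (SD, n = 4). In bulk RNA, fewer cells that make a transcript and less of it per cell cannot be told apart.

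Of the mitochondrial chaperones, Hspd1 and Hspa9 were among the members that differed most, and Trap1 and Hspe1 differed less. Hspd1, the mitochondrial HSP60, stood at 315, 326, 306 and 318 CPM in the 4 WT libraries and at 516, 528, 537 and 536 CPM in the 4 KO libraries. The groups lay far apart, and the log2 difference was 0.74 ± 0.03 (SE; edgeR adjusted p = 1.70e-19). Hspa9, the mitochondrial HSP70, had 587, 588, 559 and 559 CPM in WT and 868, 888, 890.2 and 861 CPM in KO, again without overlap, with a log2 difference of 0.61 ± 0.04 (SE; edgeR adjusted p = 1.91e-16). Trap1, the mitochondrial HSP90, rose by a log2 difference of 0.31 ± 0.03 (SE; edgeR adjusted p = 2.55e-09). Hspe1, the lid of HSPD1, had 249.7, 236, 226 and 219 CPM in WT and 292, 257, 303 and 246 CPM in KO. Here the lowest KO library lay below the highest WT library, and the log2 difference was 0.24 ± 0.05 (SE; edgeR adjusted p = 2.63e-04). The ratio of Hspd1 to Hspe1 CPM was accordingly 1.36 ± 0.0788 in WT and 1.94 ± 0.209 in KO (SD, n = 4 each), although their starts share the promoter region shown above. The difference in this ratio was not tested. The genes share 112 bases on opposite strands. Of the 50-base stretches of Hspd1, 42.1% occur elsewhere in the annotated transcripts, mostly in the pseudogene Hspd1-ps3, and of those of Hspe1 22.8%. Both values are uncertain to that extent.

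Both HSP90 genes were higher in KO. Hsp90aa1 stood at 1192, 1132, 1072 and 1067 CPM in WT and 1828, 1850.1, 1860.2 and 1699.8 CPM in KO, and every KO library was above every WT library, with a log2 difference of 0.70 ± 0.04 (SE; edgeR adjusted p = 5.46e-16). Hsp90ab1 had 8368, 8054, 7633 and 7572 CPM in WT and 9837, 9807, 10424 and 9384 CPM in KO. These groups did not overlap either, and the log2 difference of Hsp90ab1 was 0.32 ± 0.04 (SE; edgeR adjusted p = 1.22e-07). The RPKM ratio of the constitutive to the inducible gene was 9.29 ± 0.0602 in WT and 7.15 ± 0.178 in KO (SD, n = 4 each). Of the 50-base stretches of Hsp90aa1, 47.5% occur elsewhere, mostly in the transcribed pseudogene Gm12346, whose own log2 difference was 0.63 ± 0.06 (SE).

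All 6 HSP90 co-chaperones were higher. Stip1, the adaptor that joins HSP70 to HSP90, had 168, 166, 166 and 169.6 CPM in WT and 261, 255, 247 and 262 CPM in KO, with no overlap and a log2 difference of 0.61 ± 0.03 (SE; edgeR adjusted p = 4.08e-19). Fkbp4, an immunophilin that works on steroid receptors, and Ptges3 (p23), which stabilises the closed HSP90, both rose by 0.49 on the log2 scale, with edgeR adjusted p = 2.35e-13 and 3.28e-13. Ahsa1, which speeds the HSP90 ATPase, rose by 0.35 and Cdc37, which brings kinases to HSP90, by 0.26. Chordc1 rose by only 0.09 ± 0.04 (SE; edgeR adjusted p = 0.0376), and that call was lost in 10 of the alternatives, with adjusted p from 0.0520 to 0.259.

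The 8 TRiC subunits were all higher in KO, by log2 differences from 0.28 (Cct4) to 0.62 (Cct6a). Cct6a had 128, 139.5, 134 and 134 CPM in WT and 202, 217, 195 and 211 CPM in KO, with no overlap and a log2 difference of 0.62 ± 0.04 (SE; edgeR adjusted p = 4.93e-17). Tcp1, the founding subunit, had 488, 463, 481 and 452 CPM in WT and 645, 668, 637 and 650.3 CPM in KO. The 2 groups of Tcp1 were again apart, and its log2 difference was 0.46 ± 0.03 (SE; edgeR adjusted p = 3.19e-14). Between these extremes lay Cct3 at 0.47, Cct8 at 0.39, Cct5 at 0.37, Cct7 at 0.35 and Cct2 at 0.29. Cct6a shares 452 bases (12.5% of its length) with Psph on the opposite strand and Tcp1 571 bases (11.4%) with Acat3, and both of these neighbours were also higher in KO, by 0.49 and 0.44.

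The HSP70 system was divided. Its HSP110 partner Hsph1 stood at 78.5, 77.9, 73.7 and 74.4 CPM in WT and 110.0, 110.3, 115 and 112 CPM in KO, with no overlap and a log2 difference of 0.55 ± 0.03 (SE; edgeR adjusted p = 1.56e-16). The other HSP110 genes rose by less, Hspa4 by 0.30 and Hspa4l by 0.13, and the call of Hspa4l was lost in 3 of the alternatives, with adjusted p up to 0.114. In contrast, none of the 3 cytosolic HSP70 genes passed the test. Hspa8 had 4229, 4082, 3925 and 3904 CPM in WT and 4196, 4235, 4165 and 4177 CPM in KO. The KO libraries lay within the range of the WT libraries except for 1 just above it, and the log2 difference was 0.06 ± 0.03 (SE; edgeR adjusted p = 0.168), with a 95% confidence interval from -0.01 to 0.12. That interval leaves out changes of the size seen in Hsph1.

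The stress-inducible HSP70 genes were near the floor in both genotypes. Hspa1b had 32, 37, 32 and 21 counts in the untreated WT libraries and 28, 26, 28 and 29 in the untreated KO libraries, and the intervals of its log2 difference reached from -0.49 to 0.54. Hspa1a had 10, 7, 2 and 8 counts in WT and 0, 12, 8 and 6 in KO. At this depth only large differences of these genes were detectable. They share most of their sequence (62.3% of the 50-base stretches of Hspa1b also occur in Hspa1a), so counts of either gene are uncertain.

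The J-domain proteins, which choose the clients of HSP70, rose by small steps: Dnajc2 (bound to ribosomes) by 0.26 on the log2 scale, Dnaja1 by 0.23, Dnaja2 and Dnajb1 by 0.16 and Dnajb6 by 0.14. Dnajb1, the J-domain protein most closely tied to the stress response, had 43.0, 44.3, 43.9 and 45.8 CPM in WT and 49.9, 48.7, 51.9 and 47.8 CPM in KO. All 4 KO libraries lay above the WT libraries, and the log2 difference was 0.16 ± 0.04 (SE; edgeR adjusted p = 0.00158). Dnajb4, a close relative of Dnajb1, went the other way: it fell from a mean of 17.5 ± 0.678 CPM in WT to 14.1 ± 0.806 CPM in KO (SD, n = 4 each), without overlap, a log2 difference of -0.31 ± 0.06 (SE; edgeR adjusted p = 1.03e-05). Of the HSP70 cofactors, Bag1 rose by 0.39 and St13 (HIP) by 0.23, whereas Bag3 had 3.90 ± 0.501 and 3.81 ± 0.487 CPM (SD, n = 4 each) and did not pass.

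The heat shock factors themselves did not pass the test. Hsf1 had 8.12, 8.09, 9.16 and 8.58 CPM in WT and 7.78, 8.67, 9.09 and 8.38 CPM in KO, fully overlapping, with a log2 difference of 0.00 and a 95% confidence interval from -0.14 to 0.15. Hsf2 also had a log2 difference of 0.00, with an interval from -0.14 to 0.14. Transcript levels of Hsf1 say nothing of the activity of its protein, which is set after translation.

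Cell cycle genes moved in the same direction as the chaperones. The sum of 9 genes of S phase and mitosis was 8077 to 8586 CPM in untreated WT and 10433 to 10796 CPM in untreated KO. Of these genes, 9 of 9 passed the test as higher, where 25.6% of all genes tested did. The sum of 9 immediate early genes that respond to tissue handling was 161 to 176 CPM in WT and 173 to 187 CPM in KO. The part of proliferation, of handling and of other cell types in the chaperone difference was not tested.

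**Figure D2:**
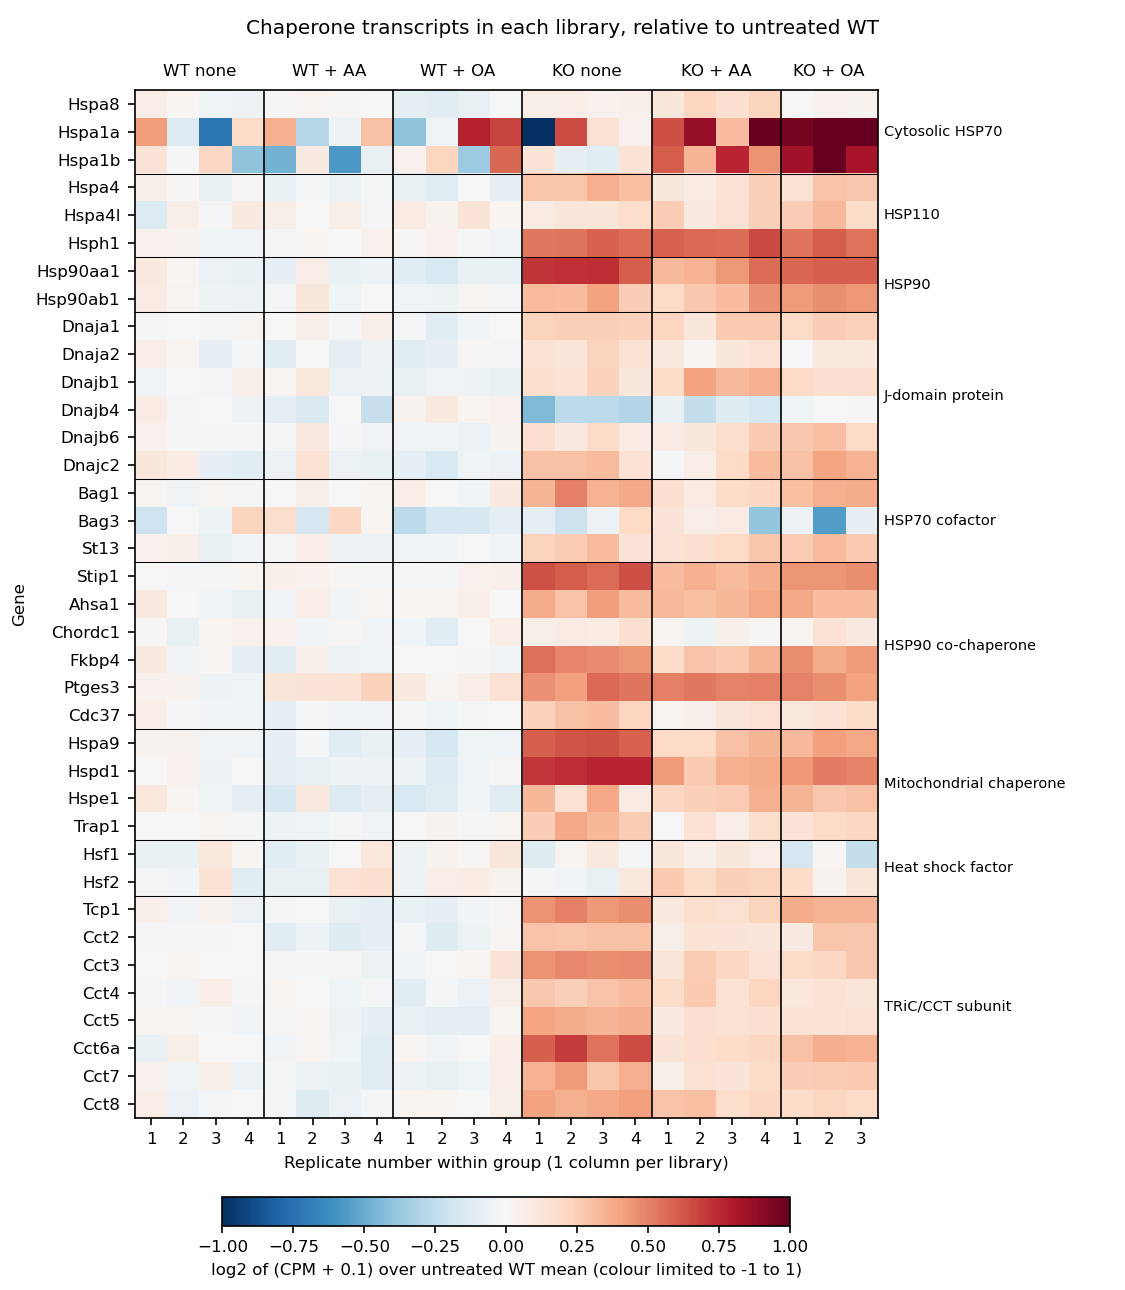
Each column is 1 of the 23 libraries and each row 1 of the 37 genes, grouped by role; colour gives log2 of CPM plus a pseudocount of 0.1 over the untreated WT mean, limited to 1 in either direction. The KO columns are redder than the WT columns for mitochondrial chaperones, HSP90, its co-chaperones and TRiC, and pale for untreated KO in Hspa8 and Hsf1.

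With a fatty acid present, most chaperones were again higher in KO. With AA, 32 members were higher in KO and none lower, against 42.7% of all genes called (21.5% higher). With OA the count was also 32 higher and none lower, against 43.1% of all genes (21.7% higher). Under the stricter filter, 52.4% of genes passed with AA and 53.2% with OA. The members' median log2 difference was 0.20 with AA and 0.28 with OA, and that of all genes -0.01 and -0.02. In total 29 members were higher in KO under all 3 conditions, where 13.7% of all genes tested were.

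Hsph1 held its difference in all 3 conditions. With AA it had 75.0, 77.4, 75.8 and 78.3 CPM in WT and 115, 113, 112 and 120.2 CPM in KO, a log2 difference of 0.58 ± 0.03 (SE; edgeR adjusted p = 3.65e-17). With OA it had 76.7, 78.6, 75.7 and 74.3 CPM in WT and 110.3, 116 and 111 CPM in the 3 KO libraries, a log2 difference of 0.56 ± 0.04 (SE; edgeR adjusted p = 1.48e-15). The groups of Hsph1 were far apart each time.

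Hspd1, Stip1 and Cct6a stayed higher in KO by a smaller margin. For Hspd1 the log2 difference was 0.42 with AA and 0.53 with OA, after 0.74 without fatty acid. For Stip1 it was 0.31 and 0.43 after 0.61, and for Cct6a 0.21 and 0.32 after 0.62. Hsp90aa1 had 0.45 with AA but 0.69 with OA, close to its 0.70 without fatty acid. Whether the margins with AA or OA differed from those without fatty acid is tested below as the difference of the fatty acid effects. The margins with AA were not tested against those with OA.

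Some members that had not passed between the untreated genotypes did so with a fatty acid. Hspa8 was higher in KO with AA, at 4064, 4107, 4064 and 4032 CPM in WT and 4373, 4691, 4503 and 4704 CPM in KO, a log2 difference of 0.17 ± 0.03 (SE; edgeR adjusted p = 7.89e-05). With OA the log2 difference of Hspa8 was 0.10 ± 0.04 (SE; edgeR adjusted p = 0.0197), and this call was lost in 7 of the alternatives, with adjusted p up to 0.0888. Hspa1b was higher in KO with AA by 0.87 ± 0.24 (SE; edgeR adjusted p = 0.00323) and with OA by 1.03 ± 0.24 (SE; edgeR adjusted p = 5.64e-04). Hsf2 did not pass with OA but did with AA (log2 difference 0.18 ± 0.07 (SE; edgeR adjusted p = 0.0239)), a call lost in 4 of the alternatives (adjusted p up to 0.104), and Hsf1 and Bag3 passed in neither condition. Dnajb4, lower in untreated KO, had log2 differences of -0.03 with AA and -0.06 with OA and did not pass.

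**Figure D3:**
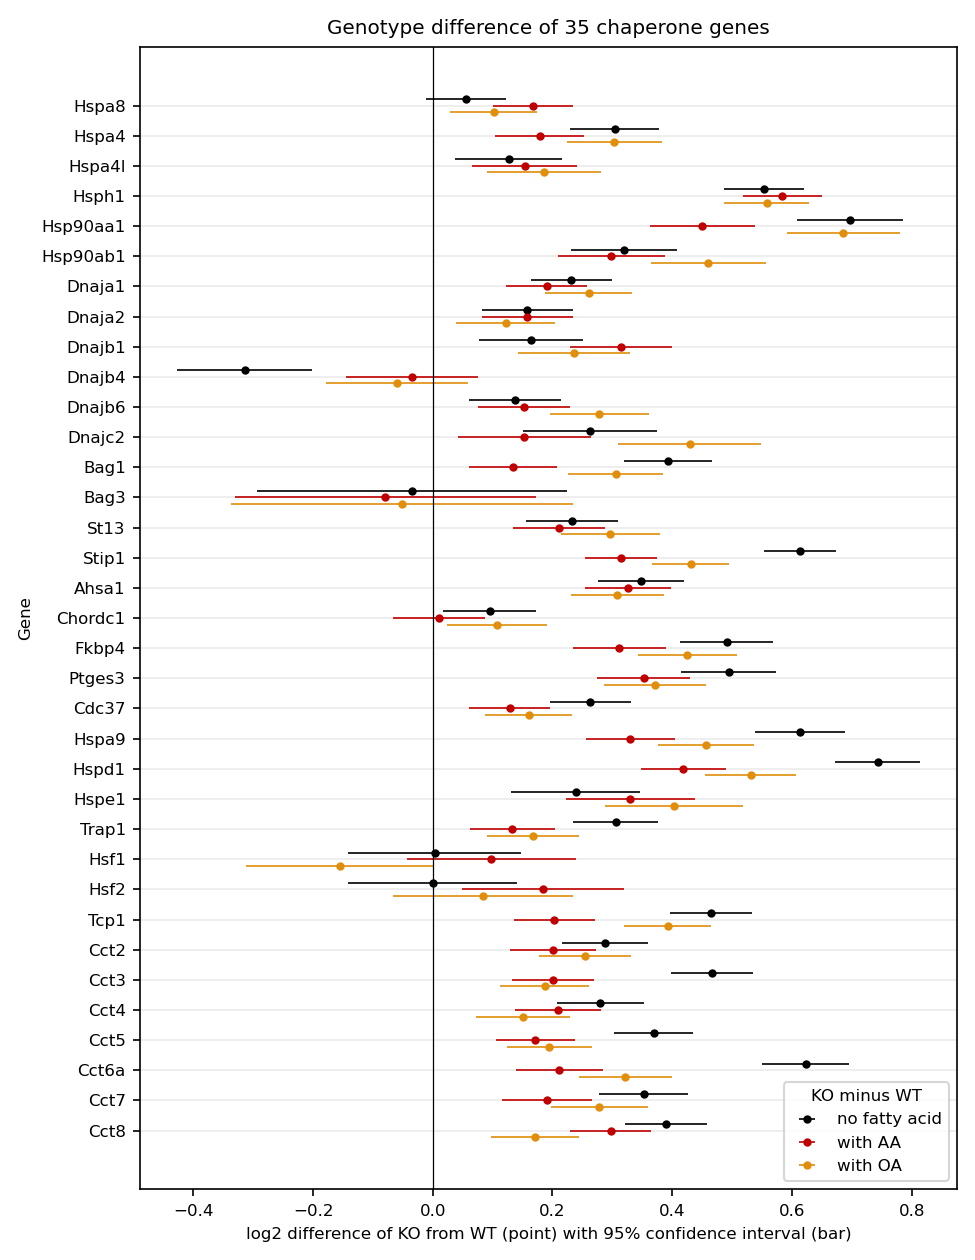
Log2 difference of KO from WT with its 95% confidence interval for 35 of the 37 genes (Hspa1a and Hspa1b, whose intervals are wide, are left out), untreated, with AA and with OA. Most points lie right of 0 in all 3 conditions, while the intervals of untreated Hspa8, Bag3, Hsf1 and Hsf2 include 0 and untreated Dnajb4 at -0.31.

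In WT cells neither fatty acid changed a member past the threshold. With AA, 0 of 37 passed edgeR's quasi-likelihood test, where 0.416% of all genes did (0.161% higher, 0.255% lower), and 3 members had an unadjusted p under 0.05 (Ptges3, Cct2 and Dnajb4). DESeq2 called 1 of them, Ptges3. Its WT libraries stood at 45.6, 45.2, 42.7 and 43.4 CPM untreated and 48.2, 48.4, 48.7 and 51.9 CPM with AA, without overlap, and the edgeR log2 difference was 0.16 ± 0.04 (SE; edgeR adjusted p = 0.0624). With OA, 0 of 37 passed in edgeR and in DESeq2, against 3.73% of all genes (1.23% higher, 2.5% lower), and 4 had an unadjusted p under 0.05. For Hspd1 the 95% confidence interval of the log2 difference in WT ran from -0.14 to 0.00 with AA and from -0.12 to 0.02 with OA.

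The treated WT libraries stood close to the untreated ones given above. Hspd1 had 295, 301, 306 and 306 CPM with AA and 306, 289.7, 306 and 319 CPM with OA. Hspe1 had 208, 249, 212 and 220.2 CPM with AA and 209, 215, 229 and 215 CPM with OA, so the mitochondrial pair overlapped its untreated range with both fatty acids. For Hsp90aa1 the values were 1055, 1166, 1065 and 1075 CPM with AA and 1038, 1005, 1065 and 1069 CPM with OA. For Hsp90ab1 they were 7817, 8539.6, 7672 and 7889 CPM and 7704, 7634, 8070.3 and 7825 CPM, also overlapping the untreated range. Stip1 had 174, 173, 169 and 166 CPM with AA and 166, 167, 173 and 173 CPM with OA, where untreated WT spanned 166 to 169.6 CPM. Among TRiC subunits, Tcp1 had 468, 473, 447 and 443 CPM and 451, 444, 461 and 474 CPM, Cct6a 131, 136, 130.1 and 124 CPM and 136, 131, 134 and 140.0 CPM, and Cct3 104, 104, 106 and 102 CPM and 104, 106, 107 and 115 CPM, with AA and OA in that order. Each of these subunits overlapped its untreated WT range.

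In the HSP70 arm of WT, Hspa8 had 3761, 3729, 3839 and 4018 CPM with OA, against 3904 to 4229 CPM untreated. Dnajb1 had 44.9, 47.7, 42.4 and 42.7 CPM with AA and 41.9, 43.1, 42.8 and 41.9 CPM with OA. Hsf1 stood at 7.89, 8.10, 8.52 and 9.15 CPM with AA and 8.20, 8.72, 8.57 and 9.21 CPM with OA in WT, and at 9.17, 8.79, 9.19 and 8.89 CPM and 7.56, 8.61 and 7.17 CPM in KO, and it passed in no comparison with untreated cells. Hspa1b had 21, 35, 18 and 31 counts with AA in WT, and Hspa1a had 10, 5, 6 and 10 counts with AA and 4, 6, 13 and 13 with OA. Of the 4 OA libraries of WT, 3 lay below the untreated WT range for Hspa8 and 3 for Dnajb1, and of the 3 OA libraries of KO, 2 lay below the untreated KO range for Hsf1. None of these differences passed edgeR's test.

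In KO cells both fatty acids changed many members, and mostly downwards. These comparisons share the untreated KO libraries with the comparison of untreated KO and WT, so the sets of values are not separate evidence. With AA, 16 members fell and 4 rose, against 27.6% of all genes (15.4% lower, 12.2% higher). With OA, 11 fell and 5 rose, against 23.2% of all genes (12.7% lower, 10.5% higher). Under the stricter filter, 36.4% of genes passed with AA and 30.7% with OA. The median log2 difference of the members was -0.08 with AA and -0.07 with OA, and that of all genes -0.01 with each.

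The chaperonin fell with both. Cct6a had 202, 217, 195 and 211 CPM in untreated KO, 146, 151, 152 and 155 CPM with AA and 164, 172 and 170.2 CPM with OA. All treated libraries lay below all untreated ones, with log2 differences of -0.45 ± 0.04 (SE; edgeR adjusted p = 2.26e-12) for AA and -0.29 ± 0.04 (SE; edgeR adjusted p = 3.55e-07) for OA. Tcp1 went from 645, 668, 637 and 650.3 CPM to 504, 531, 523 and 548 CPM with AA, a log2 difference of -0.30 ± 0.03 (SE; edgeR adjusted p = 5.74e-09). With OA Tcp1 had 609, 597 and 596 CPM, a log2 difference of -0.11 ± 0.04 (SE; edgeR adjusted p = 0.0183), and that smaller call was lost when single libraries were left out (KO replicate 2, or KO with OA replicates 2 or 3). In all, 7 of 8 subunits fell with AA (all but Cct4) and 6 of 8 with OA (all but Cct2 and Cct7).

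Cct3 and Cct5 fell about equally with either fatty acid. Cct3 had 144, 148, 146 and 146 CPM untreated, 115, 126, 122 and 117 with AA and 120.0, 122 and 128 with OA, log2 differences of -0.29 and -0.25. Cct5 had 472, 464, 454 and 461 CPM untreated, 384, 402, 399 and 399 with AA and 393, 393 and 397 with OA, log2 differences of -0.22 and -0.23. None of the treated libraries of these subunits reached the untreated level.

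The mitochondrial set fell without Hspe1. Hspd1 had 516, 528, 537 and 536 CPM in untreated KO, 424, 378, 404 and 409 with AA and 426, 451 and 447 with OA, with log2 differences of -0.39 ± 0.03 (SE; edgeR adjusted p = 4.29e-11) and -0.26 ± 0.04 (SE; edgeR adjusted p = 1.50e-06). Hspa9 had 868, 888, 890.2 and 861 CPM, 658, 657, 704 and 726 with AA and 717, 761 and 749 with OA, with log2 differences of -0.35 and -0.24. Trap1 fell by 0.21 with AA and by 0.13 with OA on the log2 scale, and the OA call was lost in 2 of the alternatives (adjusted p 0.0731 and 0.102). Hspe1 had 269, 275, 277 and 297 CPM with AA and 295, 280.1 and 285 with OA, all within the range of the untreated KO libraries. Its log2 differences of 0.03 and 0.06 did not pass. The ratio of Hspd1 to Hspe1 CPM was 1.45 ± 0.0966 in KO with AA (SD, n = 4) and 1.54 ± 0.0853 in KO with OA (SD, n = 3), nearer to the WT value of 1.36 than to the 1.94 of untreated KO.

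Of the HSP90 machinery, Stip1 fell with both, from 261, 255, 247 and 262 CPM to 208, 214, 209 and 216 with AA and 227, 227 and 231 with OA, log2 differences of -0.28 ± 0.03 (SE; edgeR adjusted p = 2.87e-09) and -0.17 ± 0.03 (SE; edgeR adjusted p = 1.48e-04). Hsp90aa1 fell with AA, from 1828, 1850.1, 1860.2 and 1699.8 to 1397, 1417, 1504 and 1641 CPM, a log2 difference of -0.28 ± 0.04 (SE; edgeR adjusted p = 3.72e-06). With OA it had 1662, 1691 and 1685 CPM, a log2 difference of -0.11 ± 0.05 (SE; edgeR adjusted p = 0.0952), which did not pass. Hsp90ab1 did not pass with either: the libraries held 9071, 9536, 9798 and 10850.2 CPM with AA and 10611, 10940.4 and 10684 CPM with OA. Fkbp4 (log2 difference -0.22) and Bag1 (-0.24) fell with AA but did not pass with OA (-0.07 and -0.05), and Cdc37 fell with both (-0.17 and -0.12).

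A few genes, most of them of the HSP70 arm, rose instead. With AA, Hspa8 went from 4196, 4235, 4165 and 4177 CPM to 4373, 4691, 4503 and 4704 CPM, every treated library above every untreated one, a log2 difference of 0.12 ± 0.03 (SE; edgeR adjusted p = 0.00429). Dnajb1 rose with AA from 49.9, 48.7, 51.9 and 47.8 to 50.3, 58.6, 55.5 and 56.5 CPM, with overlap, by 0.16 ± 0.04 (SE; edgeR adjusted p = 0.00447). Hsf2 rose with AA by 0.23 and Dnajb4 by 0.16, and the second call was lost in 4 alternatives, with adjusted p up to 0.119. With OA, Hspa8 had 4049, 4161 and 4143 CPM and Dnajb1 50.7, 49.8 and 49.4 CPM, and neither passed, at log2 differences of -0.03 and 0.01. Of the 39.4% of 50-base stretches of Hspa8 that occur elsewhere, most are in the pseudogene Gm15459, whose log2 difference with AA in KO was 0.32 ± 0.05 (SE).

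With OA the inducible HSP70 genes rose in KO from a very low level. Hspa1b had 28, 26, 28 and 29 counts in the untreated KO libraries and 60, 100 and 51 in the 3 with OA, a log2 difference of 1.19 ± 0.25 (SE; edgeR adjusted p = 3.41e-04). Hspa1a had 0, 12, 8 and 6 counts untreated and 18, 22 and 22 with OA, a log2 difference of 1.54 ± 0.52 (SE; edgeR adjusted p = 0.027). All OA libraries lay above all untreated ones for both genes. The call of Hspa1a was lost without KO replicate 1 or 4 or without KO with OA replicate 2 or 3, at adjusted p from 0.0524 to 0.0949. With AA, Hspa1b had 52, 52, 58 and 44 counts and Hspa1a 14, 21, 10 and 24, and neither passed, at edgeR adjusted p = 0.0629 and 0.1004. In WT with OA, Hspa1b had 32, 34, 20 and 46 counts and its difference from untreated WT did not pass. The difference between its OA effects in KO and WT, tested below, did not pass either. Dnajb4 (log2 difference 0.30), Hspa4l (0.13) and Dnajb6 (0.12) also rose with OA in KO, and the calls of Hspa4l and Dnajb6 were lost in 7 and 4 of the alternatives.

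**Figure D4:**
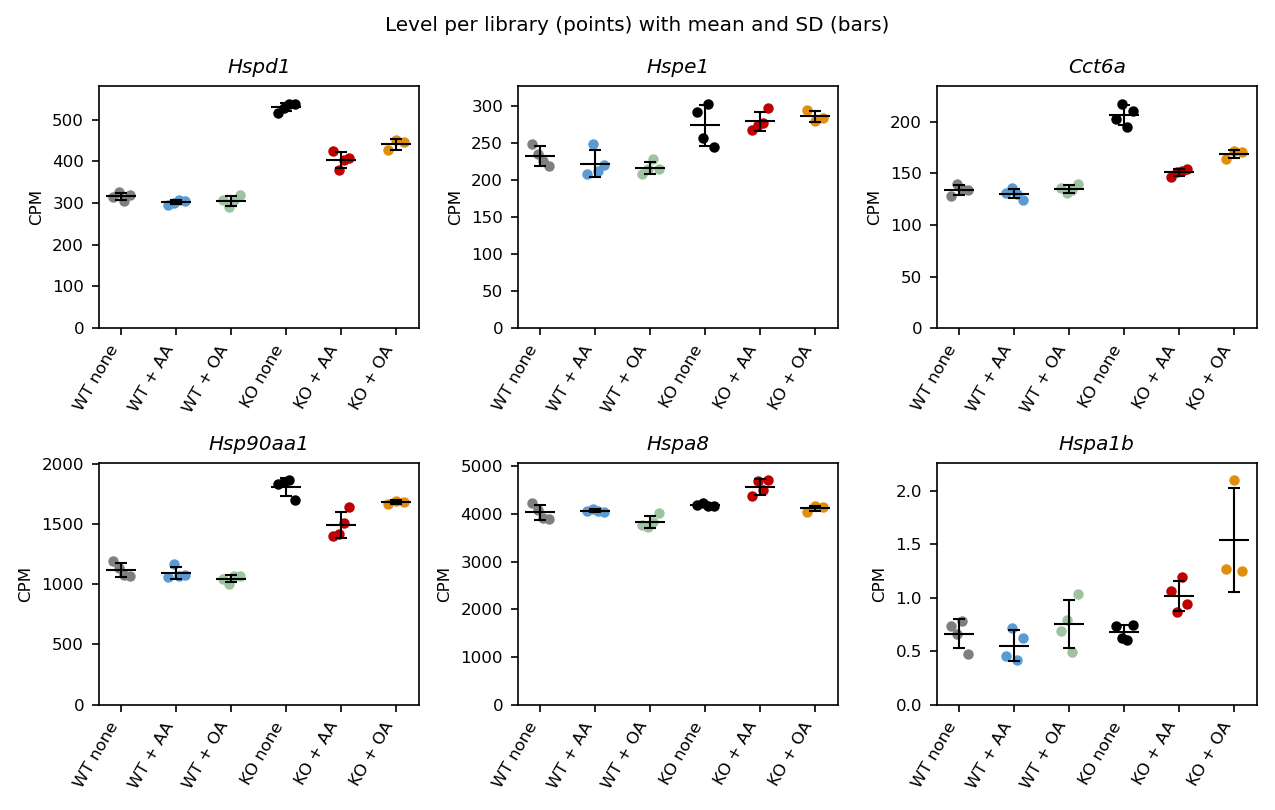
CPM of 6 genes in each library (points) with the group mean and SD (bars); the axis of each panel starts at 0. Hspd1, Cct6a and Hsp90aa1 are highest in untreated KO and lower with AA, Hspa8 is highest in KO with AA, and Hspa1b is highest in KO with OA.

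The values of other gene groups that moved in KO with the fatty acids stand beside these. The sum of the S phase and mitosis genes in KO was 8891 to 9829 CPM with AA and 9911 to 10568 CPM with OA, after 10433 to 10796 CPM untreated, so the AA libraries lay below the untreated ones and the OA libraries overlapped them. The sum of 7 targets of the antioxidant factor NRF2 was 198 to 203 CPM in untreated KO, 409 to 421 with AA and 244 to 257 with OA, and in WT 140 to 148 untreated, 197 to 204 with AA and 157 to 159 with OA. The CD8 markers Cd8a and Cd8b1, both called lower with each fatty acid in KO, summed to 848 to 914 CPM untreated, 708 to 772 with AA and 733 to 759.9 with OA, without overlap. The immediate early genes summed to 153 to 162 CPM in KO with AA, below the untreated 173 to 187, and to 170.4 to 179 with OA. Dendritic cell genes summed to 20.5 to 22.6 CPM in KO with AA and 16.0 to 17.6 with OA, below the untreated 23.3 to 26.7, and platelet genes to 10.3 to 12.9 and 10.6 to 11.7, above the untreated 7.29 to 9.09. The part of any of these groups in the chaperone differences was not tested.

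Whether a fatty acid acted differently in KO and WT was tested as the difference of its log2 effects. For AA, 13 members passed, 12 of them with the more negative effect in KO, against 13.9% of all genes (5.97% more positive, 7.98% more negative). For OA, 8 passed, 7 of them more negative in KO, against 12.5% of all genes (5.9% more positive, 6.62% more negative). Under the stricter filter, 19.5% of genes passed for AA and 17.7% for OA. The count for OA, 21.6% of the members, was near that share. With AA the difference of effects was -0.41 ± 0.05 (SE; edgeR adjusted p = 3.14e-07) for Cct6a, -0.30 ± 0.04 (SE; edgeR adjusted p = 3.14e-06) for Stip1, -0.32 ± 0.05 (SE; edgeR adjusted p = 1.16e-05) for Hspd1 and -0.27 ± 0.05 (SE; edgeR adjusted p = 1.44e-04) for Cct3. With OA it was -0.30 ± 0.05 (SE; edgeR adjusted p = 1.36e-04) for Cct6a, -0.28 ± 0.05 (SE; edgeR adjusted p = 2.01e-04) for Cct3, -0.22 ± 0.05 (SE; edgeR adjusted p = 0.00246) for Cct8 and -0.18 ± 0.04 (SE; edgeR adjusted p = 0.00405) for Stip1. For Cct8 the libraries held 124, 113, 117 and 119 CPM in untreated WT, 119.8, 120.0, 118 and 123 in WT with OA, 156, 151, 154 and 157 in untreated KO and 134, 137 and 135 in KO with OA. Dnajb4 was the only member that passed with a more positive effect in KO, 0.28 with AA and 0.25 with OA, and its call with OA was lost in 7 of the alternatives, at adjusted p from 0.0506 to 0.0806. Neither Hspa8 (0.11 with AA, edgeR adjusted p = 0.115) nor Hspa1b (1.01 with OA, edgeR adjusted p = 0.0524) passed this test, so their rises in KO are not shown to differ from the effect in WT.

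AA and OA were also compared directly, with the limit that their doses and times are not in the labels. In WT, 0 of 37 members passed edgeR's test, against 2.95% of all genes (1.95% higher, 0.999% lower), with 3 at an unadjusted p under 0.05 (Hspa8, Dnajb4 and Cct8) and 0 in DESeq2. In KO, 10 were lower with AA than with OA and 2 higher, against 14% of all genes (7.3% lower, 6.73% higher). Under the stricter filter, 19.2% of genes passed in KO. The log2 difference of AA from OA was -0.19 ± 0.04 (SE; edgeR adjusted p = 2.93e-04) for Tcp1 and -0.16 ± 0.04 (SE; edgeR adjusted p = 0.00328) for Cct6a, whose libraries are given above. Bag1, which releases clients from HSP70, had 289.8, 274, 294 and 299 CPM with AA and 319, 332 and 335 with OA, after 328, 368, 329.5 and 338 in untreated KO, and the log2 difference of AA from OA was -0.19 ± 0.04 (SE; edgeR adjusted p = 8.56e-04). Hspa8 was higher with AA than with OA by 0.15 ± 0.04 (SE; edgeR adjusted p = 0.00349), and Dnajb1 by 0.15, a call lost in 6 of the alternatives. The count of 12 was small in its margins: it was 6 without KO with OA replicate 3 or without KO with AA replicate 1, and 7 without KO with AA replicate 2.

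**Figure D5:**
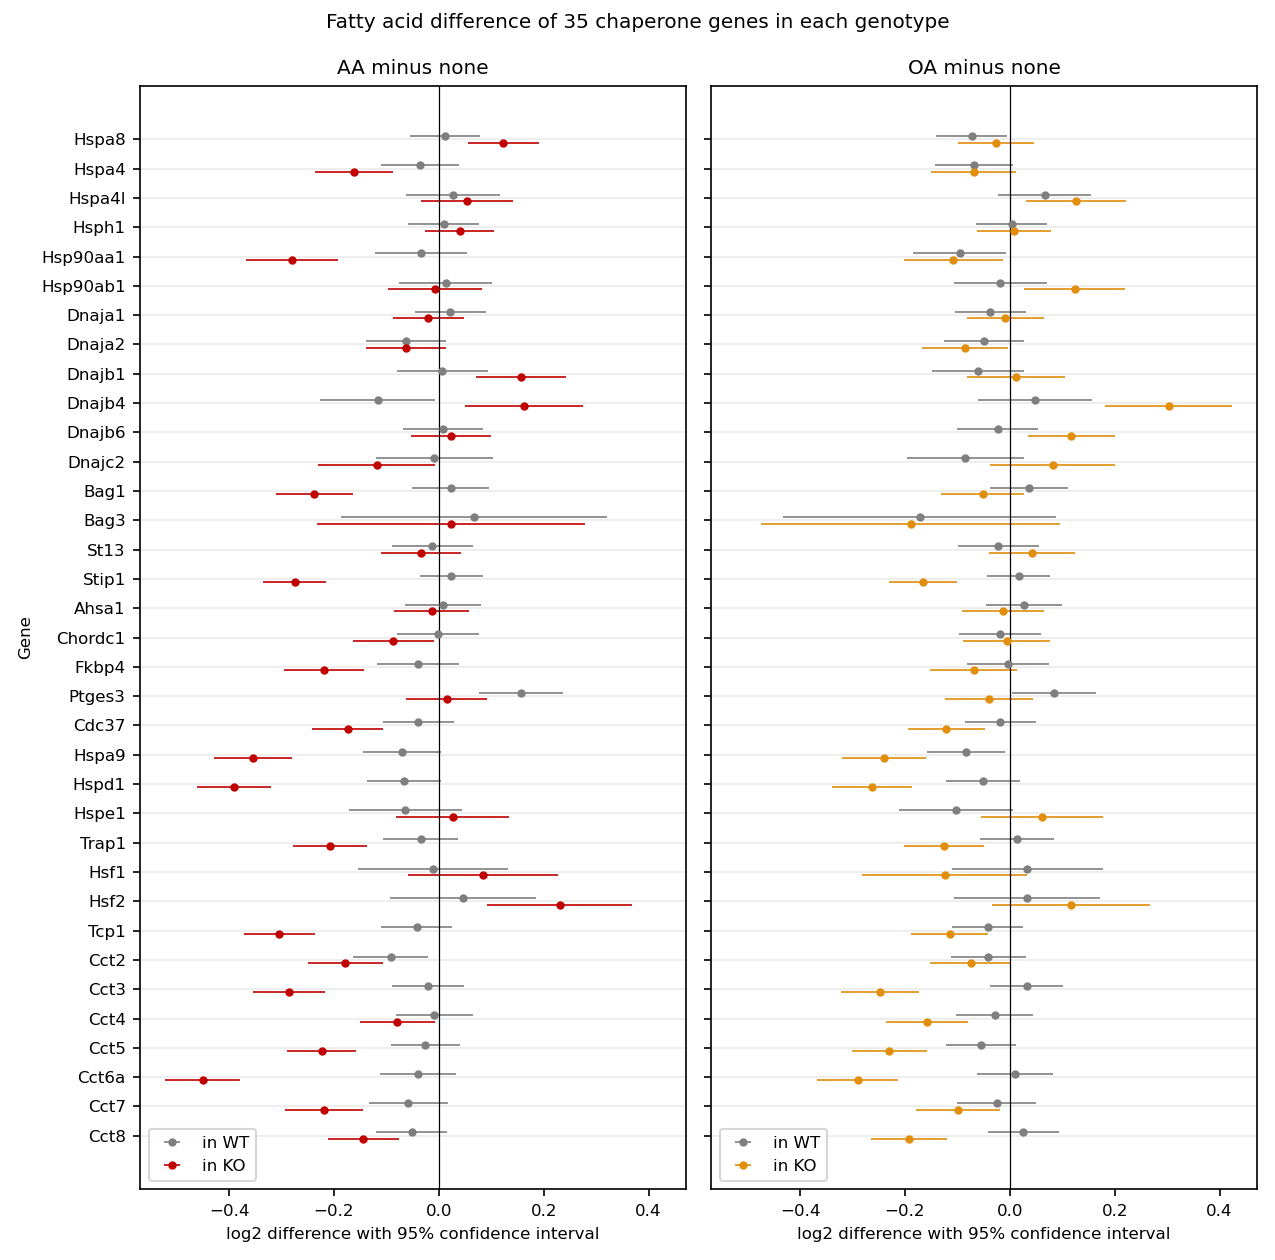
Log2 difference of AA from none (left) and of OA from none (right), with 95% confidence intervals, in WT (grey) and KO (colour) for 35 of the 37 genes (without Hspa1a and Hspa1b). The WT points lie near 0, and the KO points of TRiC, Hspd1, Hspa9 and Stip1 lie to the left of it with both fatty acids.

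Other genes of the same system, 65 in a list that did not include the members, moved in both directions, but in KO against WT more rose than fell. Of the 59 tested, 31 were higher and 8 lower in untreated KO than WT. With AA 24 were higher and 2 lower, and with OA 27 higher and 6 lower. Of all genes tested, 25.6% were higher and 24.2% lower untreated, 21.5% and 21.2% with AA, and 21.7% and 21.4% with OA. Dnajc11, a J-domain protein of the mitochondrial membranes, rose by 0.39 ± 0.03 (SE) in untreated KO, and Nudc, an HSP90 co-chaperone, by 0.44 ± 0.04 on the log2 scale. Grpel1, the nucleotide exchanger of HSPA9, was higher in KO by 0.51 ± 0.04 with AA and by 0.49 ± 0.04 with OA. In WT, AA changed 0 of the 59 in edgeR and OA 2, Dnajb5 (-0.32 ± 0.08) and Dnaja4 (-0.15 ± 0.04), both J-domain proteins. Of all genes tested in WT, AA changed 0.416% and OA 3.73%.

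In KO, AA raised 10 and lowered 18 of these 59 genes, and OA raised 7 and lowered 13. Of all genes tested, AA raised 12.2% and lowered 15.4% in KO, and OA raised 10.5% and lowered 12.7%. Ppid, the immunophilin cyclophilin 40, fell by 0.25 ± 0.03 (SE) with AA, and Cacybp, which binds HSP90, fell by 0.23 ± 0.04 with OA. Small heat shock proteins were nearly silent: of 6 genes 1 was tested, and all 6 together summed to 2.00 to 3.94 CPM in any library.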

How the data were processed

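Per the labels' protocols, RNA was isolated with TRIzol and a stranded messenger RNA kit was used for the libraries. Per the submitters' processing notes, Trimmomatic 0.36 trimmed the reads, and featureCounts (Subread 1.5.1) counted them on GRCm38. For the aligner, the annotation and how strands and mates were counted, the settings are not given in the sources. The deposited table holds raw counts of 23 libraries with a gene length, whose columns were matched to samples by name. Among counts from 1 to 19, 66.5% to 70.7% per library were even. Odd and even counts were thus not equally common, and low counts may not each stand for separate fragments.

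Genes were kept with filterByExpr (minimum count 10, minimum total 15), which left 18015 genes with 99.964% of the counts. With edgeR 4.0.16 (R 4.3.3), all libraries entered 1 quasi-likelihood fit with TMM factors and a mean for each group (17 residual degrees of freedom). In each of 11 comparisons, p-values were adjusted by Benjamini-Hochberg over every tested gene, and an adjusted p under 0.05 counted as passed, whatever the fold. Values are CPM scaled by TMM, or RPKM from the deposited length. The procedure was tested on simulated data. The alternatives were DESeq2 1.42.0, other factors (RLE and upper quartile), no filter, the stricter filter, the groups compared alone, a replicate block and each library left out. Each comparison left out only its own libraries, 7 or 8 for 2 groups and 15 or 16 for the difference of effects.

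The members, the lists of other genes and the rule for named genes were chosen with earlier results of these data known. By that rule, values in every library are given for 11 well-known members and for the 4 members with the smallest adjusted p in each comparison. Other members that passed may be named, and up to 3 other genes of the system per comparison. Overlaps and shared 50-base stretches come from the GENCODE annotation of GRCm38, and promoter windows from RefSeq (GRCm38.p6). Promoter windows of the other members were not used here. Chi-square values found no libraries of a group that agree within counting noise. Per degree of freedom they were 5.70 to 18.9 between libraries of KO with AA and 3.40 to 10.8 within the other groups. The labels name no batch.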

Additional observations from a re-analysis of the deposited data

Results flagged for a closer look

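Among the 185 groups of 4 libraries examined, 1 per member and group, 9 had a library that stood apart from the other 3, and chance gives about 1 in 20. Dnajb4 was lowest in untreated KO replicate 1, at 12.9 CPM against 14.3 to 14.6. Dnajb6 was highest in untreated WT replicate 1, at 275 CPM against 264 to 266, and Cdc37 in the same library, at 629.5 CPM against 591 to 596. Dnajc2 was highest in WT with AA replicate 2, at 472 CPM against 407 to 412, and lowest in untreated KO replicate 4, at 473 CPM against 525 to 533. Bag3 was lowest in KO with AA replicate 4 (2.95 CPM), and Ptges3 was highest in WT with AA replicate 4 (51.9 CPM). Cct3 was highest in untreated WT replicate 2 (107 CPM) and Cct5 in WT with OA replicate 4 (366 CPM).

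The effect of a fatty acid differed between the genotypes for 21 results, tested as the difference of its log2 effects (KO minus WT). With AA the differences were -0.41 for Cct6a, -0.32 for Hspd1, -0.30 for Stip1, -0.28 for Hspa9, -0.27 for Cct3, -0.26 for Tcp1 and for Bag1, -0.25 for Hsp90aa1, -0.20 for Cct5, -0.18 for Fkbp4, -0.17 for Trap1, -0.16 for Cct7 and 0.28 for Dnajb4. With OA they were -0.30 for Cct6a, -0.28 for Cct3, -0.22 for Cct8, -0.21 for Hspd1, -0.18 for Stip1, -0.17 for Cct5, -0.16 for Hspa9 and 0.25 for Dnajb4. The result of Hspa9 with OA was at edgeR adjusted p = 0.0498 and was lost in 17 of the alternatives, and that of Cct7 with AA in 14. Fkbp4 with AA and Dnajb4 with OA were each lost in 7, Trap1 with AA in 3 and Cct5 with OA in 2.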

How the results depend on the processing

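Of 164 calls of members over the 11 comparisons, 136 were kept in all alternatives run, 28 were lost in at least 1 and 0 changed sign. Counts of members moved as follows. With AA in WT the 0 became 1 with DESeq2 and with the stricter filter (Ptges3 in both). With each library left out in turn, the counts ran from 29 to 31 for KO against WT untreated, 30 to 32 with AA, 29 to 33 with OA, 0 to 0 for each fatty acid in WT, 19 to 21 for AA in KO, 12 to 17 for OA in KO, 0 to 1 for AA against OA in WT (Dnajb4 without WT with AA replicate 3), 6 to 14 for AA against OA in KO, 10 to 15 for the difference of AA effects and 6 to 8 for that of OA effects. The upper quartile factors moved the share of higher genes among all called genes from 38.7% to 28.2% for AA in WT and from 47.1% to 57.7% for the difference of OA effects. With the replicate number as a block, 31, 32 and 33 members passed for KO against WT untreated, with AA and with OA, and 10 for AA against OA in KO. No pairing by replicate number was seen: of 55 pairs of libraries with the same number, 2 had deviations correlated over 0.1 (median r -0.0113). With so few libraries per group, this check cannot exclude a weak pairing. Shared sequence and overlapping genes mainly limit Hspa1a, Hspa1b, Hspa8, Hsp90aa1, Hspd1, Hspe1, Dnaja1, Dnajb6, Ptges3, Tcp1 and Cct6a. Of their 50-base stretches, from 13.9% (Tcp1) to 66.3% (Hspa1a) occur elsewhere. Low counts limit Hspa1a and Hspa1b.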
